A study of Mus musculus with 18 samples.

Results

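The Wnt/beta-catenin feedback and target genes Axin2, Lef1, Nkd1, Sp5, Tcf7, Lgr5, Rnf43, Znrf3, Notum and Trabd2b are followed here in reprogramming mouse fibroblasts. They were chosen by name, with earlier results of these data known. Where a gene had several probe sets, the one with the highest mean level on the 18 arrays was read. A probe set was found for 9 of the 10, among 22180 genes with a probe set symbol, and Tcf7 was not analysed here. The tested cultures were mouse embryonic fibroblasts (MEFs) of a reprogrammable mouse, in which dox switches on OKSM (Oct4, Klf4, Sox2 and Myc), grown with ascorbic acid and a GSK3 inhibitor (together AGi). Their reference was OKSM expression without AGi, and both arms were sampled as bulk cultures every other day between day 2 and day 12 (days 2, 4, 6, 8, 10 and 12), giving a single array for each arm on each day. The remaining 6 arrays were single samples of embryonic stem cells (ESCs), fibroblast-derived iPSCs made in 96 hours of induction with AGi, iPSCs made from granulocyte-macrophage progenitors (GMPs) in 48 hours of it, Thy1-positive cells sorted on day 3 of OKSM, GMPs, and the MEFs without dox. All samples carry the strain label Black6-129X1/SvJ. The components of AGi were given together and cannot be told apart.

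In Wnt signalling, GSK3 marks beta-catenin for destruction inside a complex built on Axin proteins. When a Wnt ligand binds Frizzled and Lrp receptors, or when GSK3 is inhibited, beta-catenin accumulates, enters the nucleus and works with Tcf and Lef factors on target genes. Many targets are themselves brakes on the pathway, so that a cell that receives the signal dampens it: some act inside the cell (Axin2, Nkd1), some clear receptors from the surface (Rnf43, Znrf3), and Notum disables Wnt ligands outside it. A GSK3 inhibitor acts below the receptors. In mouse ES cells, inhibition of GSK3 is used to support self-renewal.

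Expression is given as log2 values, where 1 unit is a doubling, and array medians lay between 6.32 and 6.46. Each difference is OKSM + AGi minus OKSM alone, and a gene was called where its limma adjusted p (Benjamini-Hochberg over 13865 tested genes) was below 0.05. The arrays themselves differed slightly between arms. The added hybridisation controls, whose RNA is not from the samples, had higher readings in the AGi arm for 18 of 18 probe sets, with differences of 0.06 to 0.26 and a mean of 0.17 ± 0.07 (SD over 6 days). Subtracting these controls moved the median AGi effect of all genes to −0.17 over all days, −0.19 over days 2 to 6 and −0.14 over days 8 to 12. Nothing in the labels says that the days were separate cultures, so the p-values measure only the spread between these arrays. In bulk cultures, fewer cells of a type and less RNA per cell cannot be told apart.

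The identity of the cultures was read from marker lists. Over all tested genes, 19.6% were called higher and 19.3% lower with AGi. The mean over 10 fibroblast markers was 8.85 to 10.42 with AGi and 9.59 to 11.17 with OKSM alone, and 8 of the 10 were called lower with AGi. The mean over 9 pluripotency markers was 6.14 on day 2 and 10.44 on day 12 with AGi, against 5.96 and 7.85 with OKSM alone. Of these 9, 5 were called higher with AGi and 0 lower. Sox2, an OKSM factor, is among these 5 and in the mean, and whether its probe set reads the transgene is unknown. On day 12 all 10 fibroblast markers were at or above the array median in both arms, but so were they in ESCs, whose mean was 8.52 against 11.24 in MEFs, so it is the mean level and not the count that separates these cells. Of 7 tested macrophage markers, 4 were lower and 1 higher (Cd68, lost with the hybridisation controls subtracted), and the mean over the 9 listed lay between 6.60 and 7.80 with AGi and between 6.60 and 8.27 with OKSM alone. These marker levels moved with the arm, and their part in the results below was not tested.

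The promoters of Axin2 and Sp5 are shown because these genes, both known as direct targets of beta-catenin, differed in their calls: Axin2 was called higher with AGi over the 6 days and Sp5 was not called. RefSeq (GRCm38.p6) gave 11 promoter windows for 6 of the 10 genes, each holding 250 bases before and 50 bases after a start site. The windows were searched on both strands for the Tcf/Lef core motif, spelled CTTTGAA, or with a changed last letter CTTTGAT, or in the related form CTTTGTA, or in its remaining form CTTTGTT. A motif lay in 2 of the 11 windows, and in 5544 of all 32851 windows of that length (16.9%). Capitals mark a motif.
Sp5, chr2:70474673-70474972, plus strand: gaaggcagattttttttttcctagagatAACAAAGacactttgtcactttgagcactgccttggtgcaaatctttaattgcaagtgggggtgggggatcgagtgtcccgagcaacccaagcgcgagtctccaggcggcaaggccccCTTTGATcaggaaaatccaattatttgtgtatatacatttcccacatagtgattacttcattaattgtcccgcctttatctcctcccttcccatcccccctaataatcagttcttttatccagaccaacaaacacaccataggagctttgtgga
Axin2, chr11:108920099-108920398, plus strand: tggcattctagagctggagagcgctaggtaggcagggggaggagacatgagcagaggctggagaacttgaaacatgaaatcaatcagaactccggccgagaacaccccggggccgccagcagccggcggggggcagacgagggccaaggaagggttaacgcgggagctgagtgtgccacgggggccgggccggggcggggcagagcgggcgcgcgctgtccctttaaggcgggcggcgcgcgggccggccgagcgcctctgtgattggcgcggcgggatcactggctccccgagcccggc
Positions are those of the leftmost base of a motif in its window, counted from the start site. The Sp5 window held CTTTGTT on the minus strand at −222 and CTTTGAT on the plus strand at −104. The other window with a motif was 1 of 4 annotated for Lef1 (chr3:131156044-131156343), with CTTTGTA on the minus strand at −147. The Axin2 window held none of these letters, which says nothing about sites elsewhere in the gene.

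The first comparison asked how the 9 measured genes differed between arms over the 6 days. Of the 9, 6 were called higher with AGi: Axin2, Lef1, Nkd1, Znrf3, Notum and Rnf43. Trabd2b and Lgr5 were lower, and Sp5 did not pass. Of all tested genes 19.6% were called higher and 19.3% lower, so a call alone is common in these data. The median AGi effect of the 9 genes was 0.38, and that of all tested genes was 0.001. When the hybridisation controls were subtracted, 5 were called higher and 2 lower, and the median of the 9 was 0.21.

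**Figure D1:**
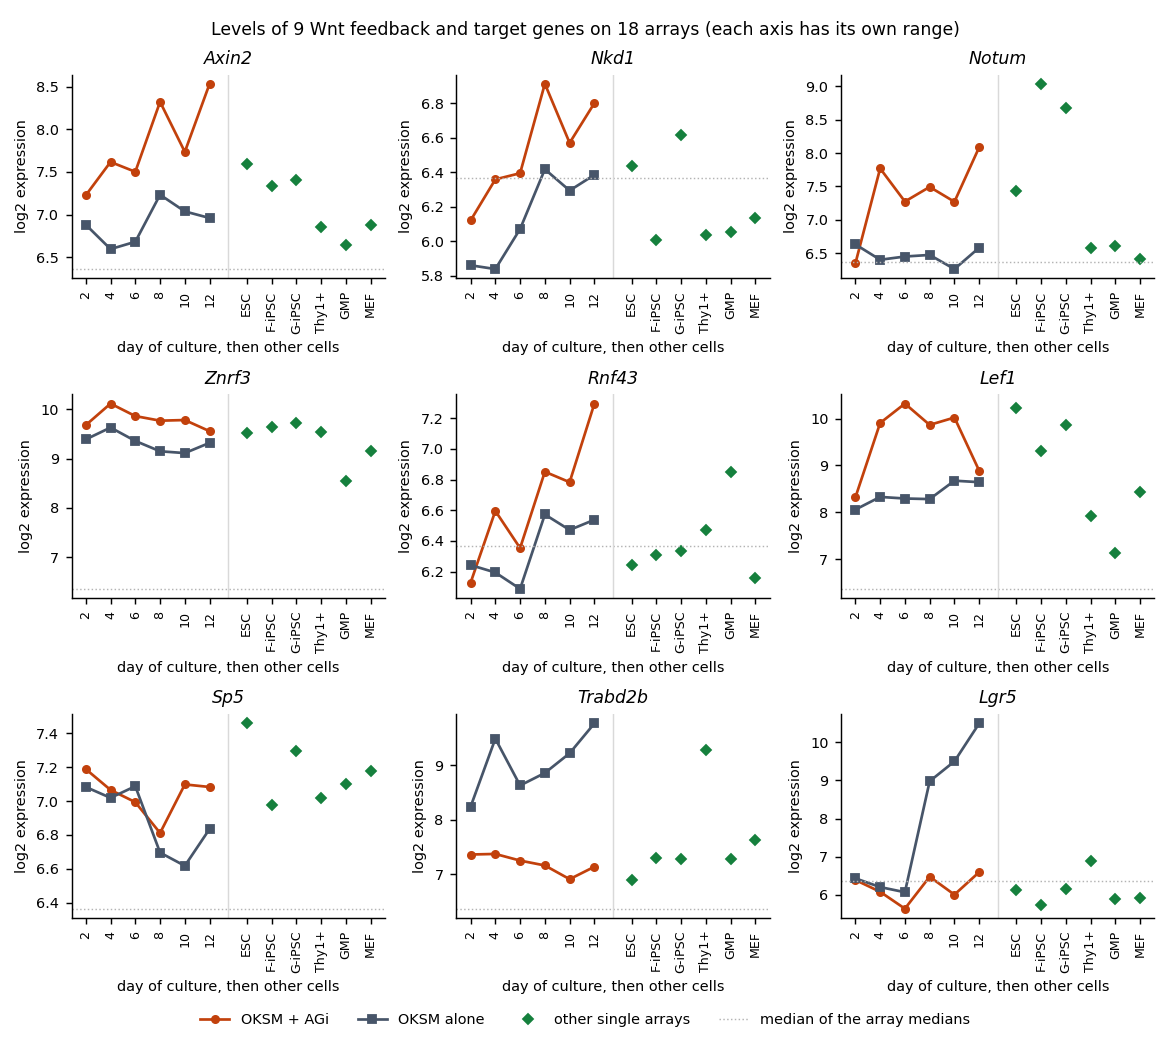
Log2 expression of 9 genes by day with OKSM + AGi (circles) and OKSM alone (squares), then on the 6 other single arrays (diamonds), with the median of the array medians dotted. Axin2 lay above its OKSM level on each day with AGi, Trabd2b lay between 6.91 and 7.37 with AGi and between 8.24 and 9.77 without, and Lgr5 parted from day 8.

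Axin2 is the inducible scaffold of the destruction complex and a standard readout of beta-catenin activity. With AGi its log2 level was 7.23, 7.62, 7.50, 8.32, 7.74 and 8.53 on days 2 to 12, against 6.88, 6.60, 6.68, 7.23, 7.04 and 6.96 with OKSM alone. The AGi value was higher on 6 of 6 days, although its lowest value (7.23, day 2) was no higher than the highest OKSM value (7.23, day 8), so the arms overlapped. The AGi effect was 0.92 ± 0.14 (limma SE, n = 6 days, adjusted p = 0.00276) and reached 2.97-fold on day 12. The day 8 array read above the day 6 array in both arms, by 0.82 with AGi and by 0.55 with OKSM alone. A second Axin2 probe set differed by −0.01, −0.06, 0.10, 0.45, 0.52 and 0.68 over the days, with an effect of 0.28 that was not called (adjusted p = 0.0827), although its late effect (days 8 to 12) was 0.55 (adjusted p = 0.00235). The early Axin2 difference was thus seen on 1 of 2 probe sets.

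Nkd1, an intracellular brake that binds Dishevelled, was higher with AGi on 6 of 6 days. Its log2 level was 6.12, 6.36, 6.39, 6.91, 6.57 and 6.80 with AGi, against 5.86, 5.84, 6.07, 6.42, 6.29 and 6.38 with OKSM alone. The difference was narrow in range, from 0.26 on day 2 to 0.52 on day 4, with an AGi effect of 0.38 ± 0.06 (adjusted p = 0.00315). Nkd1 lay near the array median, which it reached on 4 of 6 arrays with AGi and on 2 of 6 with OKSM alone. Its call was lost when the day was left out of the model as a block (adjusted p = 0.0756), and also when the effect was tested against the largest control difference of 0.26 (adjusted p = 0.238).

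Notum encodes a secreted enzyme that removes the lipid from Wnt ligands and so switches them off. With AGi its log2 level was 6.35, 7.77, 7.27, 7.49, 7.27 and 8.09, against 6.63, 6.40, 6.45, 6.47, 6.26 and 6.58 with OKSM alone. Its difference was −0.29 on day 2 and 0.82 to 1.50 on the 5 later days, while the OKSM arm stayed between 6.26 and 6.63. The AGi effect was 0.91 ± 0.21 (adjusted p = 0.0127). The second Notum probe set showed no such difference, with an effect of 0.05 (adjusted p = 0.657) and a daily range of −0.30 to 0.19.

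Rnf43 and Znrf3 are sister ubiquitin ligases that remove Frizzled receptors from the cell surface. Znrf3 was the more even of the pair: its level was 9.67, 10.11, 9.86, 9.76, 9.78 and 9.55 with AGi, against 9.39, 9.63, 9.36, 9.15, 9.11 and 9.32 with OKSM alone. It was higher on 6 of 6 days, by 0.24 to 0.67, with an effect of 0.47 ± 0.07 (adjusted p = 0.00316). Rnf43 lay lower on its own probe set, at 6.13, 6.60, 6.35, 6.85, 6.78 and 7.30 with AGi, against 6.24, 6.19, 6.09, 6.57, 6.47 and 6.54 with OKSM alone. It was higher on 5 of 6 days, with an effect of 0.32 ± 0.10 (adjusted p = 0.0426). That call was lost without any of days 4, 6, 8, 10 or 12 (adjusted p = 0.0758 to 0.0966), when the hybridisation controls were subtracted (0.15, adjusted p = 0.282), without the day as a block (0.190) and without the filter on low values (0.0563).

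Lef1 is both a target and a DNA-binding partner of beta-catenin. Its log2 level was 8.32, 9.91, 10.32, 9.87, 10.02 and 8.89 with AGi, against 8.06, 8.33, 8.29, 8.28, 8.67 and 8.64 with OKSM alone. On day 2 and day 12 the difference was 0.26 and 0.24, and on days 4, 6, 8 and 10 it was 1.58, 2.03, 1.58 and 1.35, up to 4.07-fold on day 6. The AGi effect was 1.17 ± 0.25 (adjusted p = 0.00852). In the AGi arm Lef1 changed by 1.59 between days 2 and 4 and by −1.14 between days 10 and 12. Znrf3 was the other gene whose smallest difference fell on day 12.

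Sp5 is a transcription factor induced by Wnt in embryos and ES cells. Its level was 7.19, 7.07, 6.99, 6.81, 7.10 and 7.08 with AGi, against 7.08, 7.02, 7.09, 6.70, 6.62 and 6.84 with OKSM alone. The arms overlapped, and no day differed by 0.5 or more. The AGi effect was 0.15 ± 0.08 (95% interval −0.04 to 0.34, adjusted p = 0.174), and it was −0.02 (adjusted p = 0.892) with the hybridisation controls subtracted. Sp5 read 7.46 in ESCs, 6.98 in fibroblast-derived iPSCs and 7.29 in GMP-derived iPSCs, against 7.18 in MEFs.

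Trabd2b (Tiki2) is a membrane protease known to inactivate Wnt ligands. Its log2 level was 7.36, 7.37, 7.25, 7.16, 6.91 and 7.13 with AGi, against 8.24, 9.49, 8.63, 8.86, 9.22 and 9.77 with OKSM alone. Its arms did not overlap, with differences of −0.88 on day 2 and −2.64 on day 12, where it was 6.21-fold lower with AGi. The AGi effect was −1.84 ± 0.22 (adjusted p = 0.00128), and it was called without each day in turn (adjusted p = 0.000515 to 0.00712). MEFs without dox read 7.63, so the OKSM arm lay above that starting level on every day and the AGi arm below it.

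Lgr5 is a receptor for R-spondins and a Wnt target in many stem cells. Its log2 level was 6.39, 6.08, 5.64, 6.48, 6.01 and 6.60 with AGi, against 6.44, 6.21, 6.07, 8.98, 9.50 and 10.49 with OKSM alone. With AGi it stayed near the array median, which it reached on 3 of 6 arrays, while with OKSM alone it was at that level to day 6 and high from day 8, a step of 2.91 between neighbouring samples. The AGi effect over all days was −1.75 ± 0.57 (adjusted p = 0.0432). This average spans both phases, and it was not called without day 6 (adjusted p = 0.0512), day 8 (0.119), day 10 (0.122) or day 12 (0.0949), nor without the day as a block (0.0881) or without the filter on low values (0.0606). The second Lgr5 probe set had the same shape at a smaller size, with differences of 0.08, 0.04, −0.02, −0.94, −0.71 and −1.37.

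The next comparison separated sustained from transient differences day by day. A response was called sustained where all 6 days had 1 sign and at least 5 differed by 0.5 log2 or more. By this description Axin2 was sustained higher (2.05% of all tested genes were) and Trabd2b sustained lower (4.55%). For Axin2 this rests on 1 of 2 probe sets, since the second reached 0.5 log2 on days 10 and 12 only and so was late only. Nkd1 reached the size on day 4 alone (0.52) and so was early only (4.2%), although its day 8 value of 0.496 missed the size narrowly. Lgr5 reached it on each day from day 8, and Rnf43 on day 12 alone (0.76), so both were late only (23.5%). Sp5 reached it on no day (small, 50.1%), and no gene of the set reached it in both directions (two-signed, 2.16%). Lef1, Znrf3 and Notum were in no class, because day 2 was small for all of them, Notum had a negative day, and Lef1 and Znrf3 were small again on day 12.

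Counted by day, few of the 9 genes differed at the start. On day 2, Trabd2b alone passed 0.5 log2, where 6.48% of all tested genes did. On day 4, 4 genes were higher and 1 lower by that size (15.8% of tested genes in either direction), on day 6 again 4 and 1 (20.5%), on day 8 it was 4 and 2 (26.5%), on day 10 it was 4 and 2 (30.1%), and on day 12 it was 3 and 2 (30%). The share of all genes rose with time as well, so the later counts stand against a higher background. With 1 log2 as the size, Trabd2b was still sustained and Axin2 was not, having reached 1 log2 on 3 of 6 days.

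**Figure D2:**
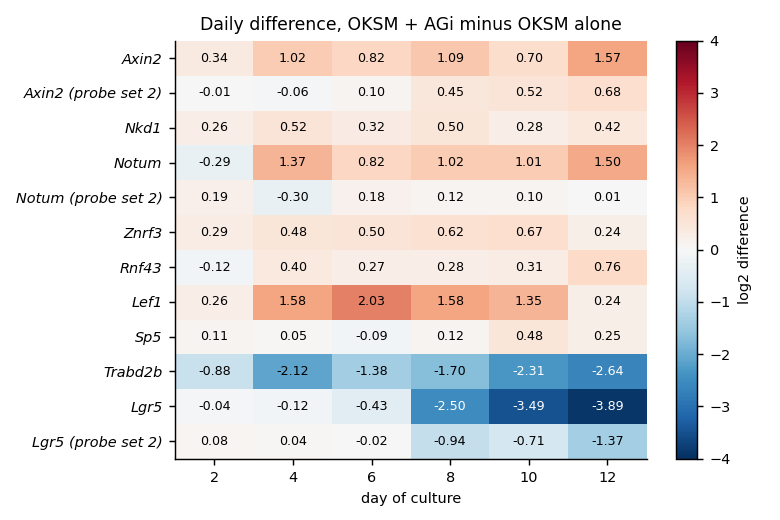
Log2 difference between OKSM + AGi and OKSM alone for each gene (rows) and day (columns), with a second probe set where the array has one. Red is higher and blue lower with AGi, and Lgr5 changes between day 6 (−0.43) and day 8 (−2.50).

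The same question was tested by fitting the AGi effect separately to days 2, 4 and 6 and to days 8, 10 and 12. In the early days 4 genes were called higher (6.22% of tested genes were): Axin2 by 0.73 (adjusted p = 0.0377), Lef1 by 1.29 (adjusted p = 0.0494), Nkd1 by 0.37 (adjusted p = 0.0353) and Znrf3 by 0.43 (adjusted p = 0.0390). Trabd2b was lower by −1.46 ± 0.24 (adjusted p = 0.0131; 8.2% of tested genes were lower). Notum had an early effect of 0.63 ± 0.27 that was not called (adjusted p = 0.162), and without day 2 it was 1.10 (adjusted p = 0.0128). All 5 early calls were lost without day 4 (adjusted p = 0.0827 for Trabd2b to 0.249 for Lef1) and without day 6 (0.0875 for Trabd2b to 0.276 for Lef1), the 4 higher ones also without day 8 (0.0516 to 0.0603). Nkd1 and Znrf3 were also lost without day 2 (0.0517 and 0.0536), and Nkd1, Znrf3 and Lef1 without day 10 (0.0537, 0.0570 and 0.0825). None of the 4 higher ones was called with the hybridisation controls subtracted, and without the day as a block Lef1 (0.0907), Nkd1 (0.0665) and Znrf3 (0.0588) were not. Without the filter on low values Axin2 (0.0504), Lef1 (0.0675) and Znrf3 (0.0508) were not.

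In the late days 7 genes were higher (20.7% of tested genes were) and 2 lower (20.6%). Axin2 was higher by 1.12 ± 0.18 (adjusted p = 0.00290), Notum by 1.18 ± 0.27 (adjusted p = 0.0116) and Lef1 by 1.06 ± 0.35 (adjusted p = 0.0447). Lgr5 was lower by −3.30 ± 0.23 (adjusted p = 0.000206) and Trabd2b by −2.22 ± 0.24 (adjusted p = 0.000728). Sp5 passed here at 0.28 ± 0.10 (adjusted p = 0.0488), but not without any of the 6 days (adjusted p = 0.0523 to 0.233). Leaving out a day also ended the late calls of Rnf43 (0.0510 without day 8, 0.0680 without day 10, 0.128 without day 12), Lef1 (0.0631 without day 4, 0.201 without day 8, 0.186 without day 10), Nkd1 (0.0600 without day 8), Znrf3 (0.0540 without day 10) and Notum (0.0522 without day 12). With the hybridisation controls subtracted, Axin2 and Notum were the 2 genes still called higher, and Lgr5 and Trabd2b were called lower. Lef1 was not called without the day as a block (adjusted p = 0.0824), nor without the filter on low values (0.0592), as was so for Sp5 (0.0602).

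Only Lgr5 differed between the phases by the test of the difference itself. Its late effect minus its early effect was −3.10 ± 0.33 (95% interval −3.86 to −2.33, adjusted p = 0.0172). For the other 8 genes the difference was not called, from −0.76 for Trabd2b (95% interval −1.56 to 0.04, adjusted p = 0.285) to 0.54 for Notum (−0.36 to 1.44, adjusted p = 0.492). These intervals are wide, and for Lef1, whose difference was small at both ends of the series, the value was −0.23 (−1.39 to 0.93, adjusted p = 0.849). Of all tested genes 0.642% were called higher and 1.8% lower in this contrast. Leaving out day 2 gave −3.02 for Lgr5 (adjusted p = 0.0514), leaving out day 4 gave −3.06 (0.0540) and leaving out day 10 gave −3.00 (0.0888), none of them called.

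**Figure D3:**
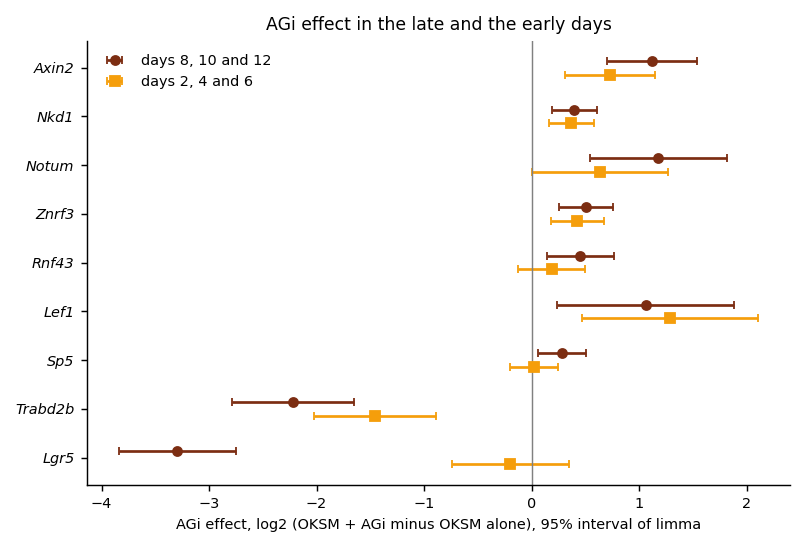
AGi effect (log2, limma estimate with its 95% interval) of each gene in days 8, 10 and 12 (circles) and in days 2, 4 and 6 (squares). The 2 intervals of Lgr5 lie apart, at −3.30 and −0.20, and those of the other 8 genes overlap.

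Within the AGi arm, 3 genes rose with day (10.5% of tested genes did, and 8.23% fell). Rnf43 gained 0.10 ± 0.02 log2 per day (adjusted p = 0.00737), Axin2 0.11 ± 0.03 (adjusted p = 0.0254) and Nkd1 0.07 ± 0.02 (adjusted p = 0.0332), and no gene of the set fell. All 3 calls were lost without day 12 (adjusted p = 0.127 for Rnf43, 0.255 for Axin2 and 0.138 for Nkd1), those of Axin2 and Nkd1 also without day 2 (0.0913 and 0.162) or day 4 (0.0543 and 0.0836), and that of Nkd1 without day 6 (0.0645). Notum, at 0.11 ± 0.04 per day (adjusted p = 0.0733), passed without day 4 (adjusted p = 0.0103). Within the OKSM arm only the rise of Lgr5 was called, at 0.47 ± 0.07 per day (adjusted p = 0.00464). Of tested genes 5.11% rose and 3.87% fell there. Nkd1 gained 0.06 ± 0.02 per day in that arm, which was not called (adjusted p = 0.0605). Without day 4 the rise of Trabd2b was called in the OKSM arm as well (0.15 per day, adjusted p = 0.0135), and without day 8 that of Nkd1 (0.06 per day, adjusted p = 0.0288). The slope with AGi minus that with OKSM alone was −0.45 for Lgr5 (limma adjusted p = 0.0368). It was not called for Axin2 (0.08, adjusted p = 0.365), Rnf43 (0.06, 0.307) or Nkd1 (0.003, 0.969). When days 8 to 12 were given a level of their own, the Lgr5 slope with OKSM alone was 0.14 and was not called (adjusted p = 0.908), and with AGi the slopes of Axin2 (0.06, adjusted p = 0.684), Nkd1 (0.02, 0.856) and Rnf43 (0.08, 0.385) were not called either. With the hybridisation controls subtracted, the Nkd1 slope with AGi was not called (adjusted p = 0.0770).

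Other values moved with that step. In the OKSM arm, the mean of the fibroblast markers was 9.71 on day 6 and 10.97 on day 8, and that of the macrophage markers 6.79 and 7.89. In the AGi arm, the fibroblast mean was 9.13 and 10.15, the macrophage mean 6.66 and 7.16, and Lgr5 gained 0.84. MEFs without dox had a fibroblast mean of 11.24, a macrophage mean of 7.74 and an Lgr5 level of 5.93. GMPs had a macrophage mean of 9.56 and an Lgr5 level of 5.91. The part of cell composition in the Lgr5 step was not tested.

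Profiles over the 18 arrays were compared by Pearson's r, as a description over arrays that share days and cultures. The genes most like Lgr5 were Ecm2 (r = 0.98), Cxcl15 (0.98), Lrrtm3 (0.98), Ecrg4 (0.97) and Ptprq (0.97), none of them a Wnt gene listed here. Among the set, Trabd2b was most like Lgr5 (0.69, place 464 of the genes compared) and Axin2 was not (−0.14). The genes most like Axin2 were Zranb2 (0.92), Epb41l4aos (0.91), Ppl (0.90), Eif4a2 (0.88) and Cd59b (0.88). Nkd1 came next from the set, at place 9 with 0.86, followed by Lef1 (0.67), Rnf43 (0.64), Notum (0.60) and Znrf3 (0.53), while Sp5 was at 0.03. Znrf3 and Rnf43 had an r of −0.06 with each other.

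The single arrays place these levels against stable cell types, with no replicate behind any of them and no test. Members were counted at 1 log2 against MEFs without dox. In ESCs, 2 of 9 passed (16.6% of all genes did): Lef1 read 10.22 against 8.43, and Notum 7.44 against 6.41. In GMP-derived iPSCs the same 2 passed (17.1%), with Lef1 at 9.86 and Notum at 8.68, and in fibroblast-derived iPSCs 1 passed (15.1%), Notum at 9.04. Notum was thus higher in both iPSC lines than on any of the 12 time-course arrays, where its highest value was 8.09, and higher than in ESCs by 1.60 in fibroblast-derived iPSCs and by 1.25 in GMP-derived iPSCs. It was the only one of the 9 past 1 log2 in each of these comparisons with ESCs (2.73% and 1.37% of all genes). The second Notum probe set did not reach 1 log2 against MEFs in any of these cells. It read 6.36 in ESCs, 6.98 in fibroblast-derived iPSCs and 6.80 in GMP-derived iPSCs, against 6.37 in MEFs.

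Axin2 read 7.60 in ESCs, 7.34 in fibroblast-derived iPSCs and 7.41 in GMP-derived iPSCs, against 6.88 in MEFs. These levels were within the range of the AGi arm (7.23 to 8.53) and above that of the OKSM arm (6.60 to 7.23). GMPs had the lowest Lef1 of all arrays, at 7.12 (1 of 9 genes past 1 log2 against MEFs, 15.9% of all genes). They had the lowest Znrf3 as well, at 8.55 against 9.15 in MEFs, while their Rnf43 was 6.85 against 6.16.

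Thy1-positive cells, sorted on day 3 of OKSM and labelled refractory, differed from MEFs in 1 of 9 genes (4.9% of all genes): Trabd2b read 9.28 against 7.63, within the OKSM range of 8.24 to 9.77. Their Lgr5 was 6.88 against 5.93 in MEFs, above the OKSM arm on days 2, 4 and 6 and below it from day 8. The second Lgr5 probe set did not show this rise over MEFs, at 5.66 against 5.79. On day 2 none of the 9 genes was 1 log2 from the MEF level, with AGi (6.15% of all genes were) or with OKSM alone (5.23%). These comparisons share the MEF array, so they are not independent of each other.

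The rest of the pathway was read from lists of ligands, receptors, antagonists, transducers, nuclear factors, other targets and genes repressed by Tcf7l1. More genes were called lower than higher in 6 of these 7 lists, where 19.3% of all tested genes were lower and 19.6% higher. In the ligand, destruction complex and other target lists the lower calls (2 of 16, 2 of 14 and 4 of 18) were near or under that share. Receptors, co-receptors and R-spondins had 1 gene higher and 12 lower of 20 tested, with a median effect of −0.31. The Frizzled receptor Fzd4 was lower by −2.16 ± 0.28 (adjusted p = 0.00160), at 6.94 to 7.88 with AGi against 8.35 to 10.25 with OKSM alone. Ror1, a receptor for Wnt5a, was lower by −1.97 ± 0.22 (adjusted p = 0.00107) and Rspo3, an R-spondin and so a ligand of the Lgr receptors, by −1.87 ± 0.41 (adjusted p = 0.00993). Fzd6 was the gene that was higher, by 0.65 ± 0.08 (adjusted p = 0.00153). Without single days 8 to 11 of the 20 were lower, the fewest without day 8, and Lgr4, the relative of Lgr5, was lower by −0.57 ± 0.08 (adjusted p = 0.00244).

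Wnt antagonists, which bind ligands or Lrp co-receptors, had 1 gene higher and 5 lower of 10 tested (median −0.38). Sfrp2 was lower by −2.18 ± 0.36 (adjusted p = 0.00351), Sostdc1 by −1.21 ± 0.10 (adjusted p = 0.000617) and Sost by −0.99 ± 0.24 (adjusted p = 0.0141). Wif1 was higher by 0.29 ± 0.09 (adjusted p = 0.0376), a call lost without day 2, 6, 8, 10 or 12 and with the hybridisation controls subtracted. Of 16 tested ligands and export genes, 1 was higher and 2 lower (median −0.09). Wnt8a was higher by 1.53 ± 0.37 (adjusted p = 0.0150), which was lost without day 10, and its AGi level was 6.22, 7.52, 9.08, 8.92, 8.35 and 6.97, against 6.07 to 6.53 with OKSM alone. Like Lef1 it was high on days 4 to 10 and nearer the OKSM arm on days 2 and 12. Wnt5a (−0.60 ± 0.11, adjusted p = 0.00566) and the ligand export factor Wls (−0.54 ± 0.10, adjusted p = 0.00626) were lower. With the hybridisation controls subtracted, 8 ligand genes were lower.

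Inside the cell, the destruction complex and its transducers had 1 gene higher and 2 lower of 14 (median −0.08). Tnks2, which targets Axin for turnover, was higher by 0.35 ± 0.10 (adjusted p = 0.0280), and Dvl3 and Fbxw11 were lower by −0.21 each (adjusted p = 0.0176 and 0.0223). The first was lost without day 6, 8, 10 or 12 and the others without day 6 or 8, and with the hybridisation controls subtracted 0 were higher and 8 lower. Gsk3b, which encodes a GSK3 kinase, had an effect of −0.24 (adjusted p = 0.0590) and Ctnnb1, which encodes beta-catenin, of −0.08 (adjusted p = 0.298). Protein activity was not measured by these arrays.

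In the nucleus, Tcf family members and cofactors had 1 gene higher and 8 lower of 14 (median −0.25). Pygo1, a cofactor that links beta-catenin to chromatin, was lower by −1.18 ± 0.14 (adjusted p = 0.00132), Bcl9l by −0.75 ± 0.09 (adjusted p = 0.00155) and the corepressor Tle2 by −0.67 ± 0.15 (adjusted p = 0.0119). Tcf7l1, the main Tcf repressor of ES cells, was lower by −0.63 ± 0.07 (adjusted p = 0.00121), and the corepressor Tle4 was higher by 0.37 ± 0.07 (adjusted p = 0.00618), a call that was lost with the hybridisation controls subtracted. Without single days 6 to 8 of the 14 were lower.

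Other beta-catenin targets, mostly known from intestine and embryo, had 1 gene higher and 4 lower of 18 (median −0.06). Tnfrsf19 was higher by 0.90 ± 0.16 (adjusted p = 0.00497), at 7.14 on day 2 and 7.66 to 8.35 on later days with AGi, against 6.72 to 7.12 with OKSM alone. Ccn4 (−1.36 ± 0.15, adjusted p = 0.00115), Sox9 (−1.26 ± 0.19, adjusted p = 0.00261) and Myc (−1.09 ± 0.08, adjusted p = 0.000617) were lower. Whether the Myc probe set reads the OKSM transgene is unknown. Without day 2, 3 of these targets were higher, and with the hybridisation controls subtracted 9 were lower. Of 6 genes that Tcf7l1 represses in ES cells, 3 were called, all higher (median 0.92): Tfcp2l1 (2.40 ± 0.36, adjusted p = 0.00247), Nanog (2.17 ± 0.48, adjusted p = 0.0106) and Nr0b1 (1.10 ± 0.35, adjusted p = 0.0384, lost without any of days 4 to 12 and with the hybridisation controls subtracted). Tfcp2l1, Nanog and Esrrb of this list are also among the 9 pluripotency markers, so the list is not a separate reading from them.

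The late effect was also compared with the early one in these lists, where 0.642% of all tested genes were called higher and 1.8% lower. The receptor, Tcf7l1-repressed and Tcf family lists held more calls than that share, the last through 1 gene of 14. Of the receptor list 4 of 20 were called lower: Rspo3 by −2.24, Rspo2 by −1.91, Fzd4 by −1.39 and Fzd2 by −1.09. Rspo3 was at 7.18 to 7.50 with AGi on days 8 to 12, against 10.21 to 10.55 with OKSM alone, and at 6.54 to 8.16 against 7.34 to 8.52 on days 2 to 6. Rspo3 and Lgr5, which encode a ligand and its receptor, thus both had their larger arm difference after day 6. Without day 10 no receptor gene was called in this contrast, and without day 2, 4 or 6 Rspo3 alone was. Of 14 tested Tcf family members and cofactors, Tle2 alone was called, lower by −0.78, a call lost without any 1 of the 6 days. Of the 6 genes repressed by Tcf7l1, Tfcp2l1 (1.86) and Nr0b1 (1.81) were called higher. Tfcp2l1, also a pluripotency marker here, was called again only without day 8, and Nr0b1 without day 2, 6 or 8. In limma's test 0 genes were called in 4 lists, where an unadjusted p below 0.05 was reached by 3 of 16 ligand genes, 4 of 10 antagonists, 1 of 14 destruction complex genes and 5 of 18 other targets, and by 19.2% of all tested genes.

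**Figure D4:**
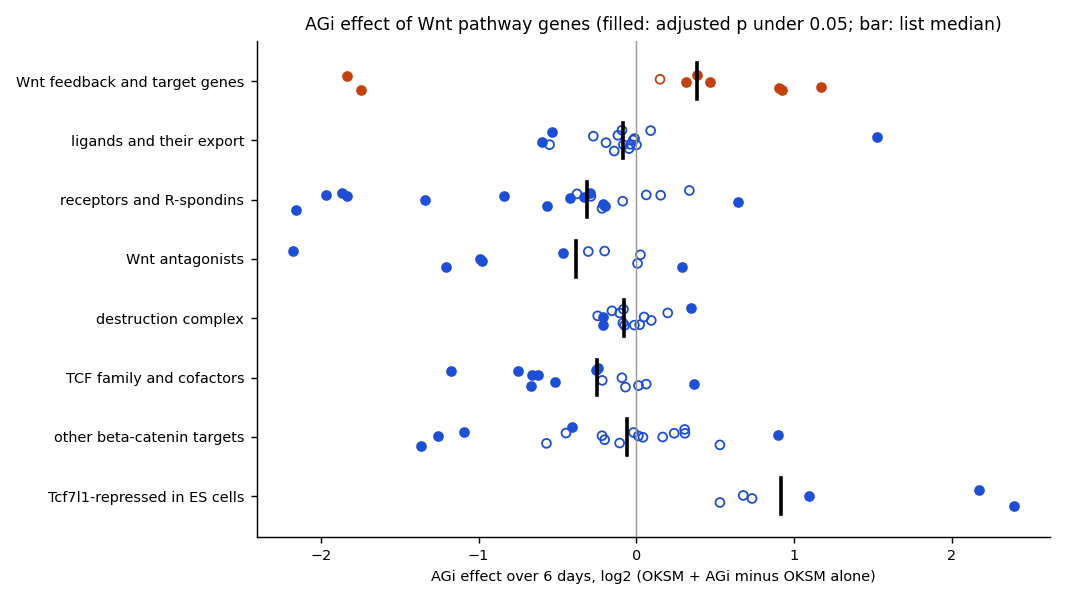
AGi effect over 6 days (log2) of each tested gene in 8 lists, with called genes filled, others open, and the list median as a bar. The 9 feedback and target genes have a median of 0.38, and receptors (−0.31) and antagonists (−0.38) lie to the left of 0.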

How the data were processed

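Biotin-labelled total RNA of 18 samples was hybridised to arrays, per the labels. The deposited table holds log2 expression for each probe set. The authors' log2 values came from RMA in Expression Console, a program of Affymetrix, as the submitters' processing notes list. Versions, settings and build are not given in these sources. Of 41345 probe sets, 23521 carried a single symbol, 1814 carried several, 15820 had none and 190 were controls. Symbols are those of the platform's annotation, updated with RefSeq (GRCm38.p6), which left 193 as they were. More than 1 probe set existed for 1082 genes.

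Genes at or above the array median on at least 3 of 12 time-course arrays entered the fits, made with lmFit and eBayes of limma 3.58.1 (R 4.3.3), with p-values adjusted by Benjamini-Hochberg. The day was a block, since the labels give each day 1 array per arm; the 2 arrays of a day deviated together from their arm means (correlations over genes 0.30 to 0.58). Residual degrees of freedom were 5 for the AGi effect, 4 for early and late effects and 8 for slopes, which were fitted without the block. Single arrays were compared by size only. The number of arrays limits the precision. All 9 members with a probe set passed the filter.

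The members, lists and tests were chosen with earlier results of these data known. Named genes were all members, up to 3 highest and 3 lowest called effects per Wnt list in the AGi effect and in the late minus early contrast, up to 2 examples per marker list and the 5 genes most like Axin2 and Lgr5; Lgr4, Gsk3b, Ctnnb1 and Tcf7l1 were named after their values were seen. Alternatives changed the filter, the probe set rule, the scaling, the variance model, the day term or the threshold, or left out 1 day. Simulated data with known changes were used to test the fits. Figures used matplotlib 3.10.9 in Python 3.11.15.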

Additional observations from a re-analysis of the deposited data

Results flagged for a closer look

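The AGi effect on Lgr5 differed between the late and the early days, by −3.10 ± 0.33 on the log2 scale (limma, adjusted p = 0.0172), as the test of the difference between the phases showed. This call was lost without day 2, day 4 or day 10. Lgr5 was lower with AGi on 3 of 3 late days, with differences of −2.50, −3.49 and −3.89, and on 3 of 3 early days, with differences of −0.04, −0.12 and −0.43. On the second Lgr5 probe set the early differences were 0.08, 0.04 and −0.02. In 27 sets of 6 values, the levels in each arm and the daily differences of the 9 genes, 0 held a value far from the rest by its gap to the nearest other value.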

How the results depend on the processing

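Over all alternatives, 692 member values kept their direction and their side of the threshold, 114 kept the direction but lost the call, 4 gained one, and 27 changed direction, 10 of them on leaving out a day; none of the 27 was called either way. AGi effect: 2 members were called lower, against 1 without a filter, at an adjusted p of 0.01, with no day block, against the largest control difference and, chosen after seeing the data, on the probe set with the lowest mean. Higher calls were 6, against 2 (Axin2 and Lef1) when tested against the largest control difference, where 1183 genes were called in all, and 2625 were called at 0.01, against 5397. Leaving out each day in turn gave 3534 to 5613 genes and 1 to 2 members lower. Subtracting the hybridisation controls left 16.7% of called genes higher, against 50.4%, with the median of all genes lower by 0.17. Late minus early: 339 genes were called, against 212 with 6 arrays in the filter, 9 at 0.01 (0 members), 57 with no day block, 1092 with day as a number and the block, 219 for days 2 and 4 against 10 and 12, and 1 to 451 without single days (0 to 1 member). Slopes: with AGi 2602 genes and 3 members, against 1430 genes with the controls subtracted, 1070 and 1 at 0.01, 82 and 0 with a separate level for days 8 to 12, and 882 to 3283 and 0 to 3 without single days. With OKSM alone 1246 genes and 1 member, against 463 with the controls subtracted, 268 at 0.01, 0 and 0 with the separate level, where no gene passed, and 341 to 1493 and 1 to 2 without single days. Classes at 1 log2: 0 sustained higher, 1 late only and 4 small; with the controls subtracted 2 were small. Without the day as a block, the calls of Lgr5, Rnf43 and Nkd1 over all days were lost and no others of that effect. Direction changed in the AGi effect of Sp5 (−0.017 over all days, −0.17 early) and Rnf43 early (−0.0030) with the controls subtracted, and of Lgr5 early on its lower probe set (0.032). Late minus early, it changed for Nkd1 on quantile normalization (−0.029) and for days 2 and 4 against 10 and 12 (−0.044). Slopes with AGi changed direction for Sp5 with the controls subtracted (0.00066), for Sp5 (0.0096) and Lgr5 (−0.079) with the separate level, and for Lgr5 (−0.0033) and Notum (−0.011) on the lower probe set. Slopes with OKSM alone did so for Axin2 on the mean of its probe sets (−0.0048) or the lower one (−0.042), and with the separate level for Axin2 (−0.059), Sp5 (0.018), Rnf43 (−0.024) and Znrf3 (0.017). Without single days the ranges crossed 0 for Sp5 early (−0.024 to 0.076), for Lef1 (−0.74 to 0.18) and Nkd1 (−0.026 to 0.10) late minus early, for the AGi slopes of Lef1 (−0.12 to 0.17), Sp5 (−0.022 to 0.0070) and Lgr5 (−0.019 to 0.070), and for the OKSM slope of Notum (−0.033 to 0.0087). The cause of these changes was not tested. Arrays give no read depth. Nkd1 and Rnf43 in both arms, and Lgr5 with AGi, lay near the array median. So did Lgr5 up to day 6 and Notum on all days with OKSM alone, and the second Notum probe set in both arms.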
